A study of Mus musculus with 15 samples.

Results

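The genes of the skeletal muscle contractile apparatus were read in skin. They were 40 genes picked by name for known parts of the sarcomere, its calcium handling and its energy supply, and each was found once among the 54532 genes of the skin table. The rule itself uses names and no measured value, but the genes were chosen with earlier results of these data known. The libraries were poly-A RNA of mouse skin. The labels give 2 genotypes, wild type and knockout of Trpv3, and for each an untreated state and 7 days of MC903, with 3 libraries in each of the 4 groups. MC903, also called calcipotriol, is an analogue of vitamin D used to inflame mouse skin. The series text speaks of conditional knockouts, but the labels give neither the cells that lose Trpv3 nor a driver, strain, age or body site, and they name no vehicle, so MC903 cannot be told apart from the handling and vehicle that came with it. Whether the 3 libraries within each group were from different animals is not stated, and the p-values then cover just the library-to-library spread, possibly technical.

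Skeletal muscle shortens when myosin thick filaments pull on actin thin filaments inside the sarcomere, and troponin and tropomyosin let this happen only when calcium is released. Most parts exist as a slow-fibre and a fast-fibre form encoded by different genes. Slow, oxidative fibres use the heavy chain of Myh7, while fast fibres use those of Myh2, Myh1 and Myh4, in rising order of speed. Mouse skin rests on a thin sheet of striated muscle, the panniculus carnosus, which is made mainly of fast fibres and is taken with the skin in many dissections.

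Sequences just upstream of the start site given by RefSeq were read from promoter windows (GRCm38.p6), which held 33 of the 40 genes. A pair of slow genes and a pair of fast genes described below are shown. Each is given with the 250 bases before the RefSeq start, 5′ to 3′ on the gene's strand. Capitals mark 3 motifs of muscle promoters on either strand, namely the E-box CANNTG bound by myogenic factors, the MEF2 site and the MCAT site CATTCC bound by TEAD factors.
Myh7, slow myosin heavy chain, chr14:54994627-54994876 (minus strand): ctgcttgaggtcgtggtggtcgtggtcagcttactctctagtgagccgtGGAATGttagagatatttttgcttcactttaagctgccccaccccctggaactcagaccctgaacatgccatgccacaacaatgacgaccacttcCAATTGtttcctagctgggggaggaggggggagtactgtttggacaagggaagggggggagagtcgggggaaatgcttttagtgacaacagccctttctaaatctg
Tnnc1, slow troponin C, chr14:31208062-31208311 (plus strand): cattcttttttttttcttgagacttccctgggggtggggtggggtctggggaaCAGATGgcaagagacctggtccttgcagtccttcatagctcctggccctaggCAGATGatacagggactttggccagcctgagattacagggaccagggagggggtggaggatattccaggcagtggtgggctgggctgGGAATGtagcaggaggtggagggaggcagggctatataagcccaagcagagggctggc
Myh4, fastest myosin heavy chain, chr11:67237562-67237811 (plus strand): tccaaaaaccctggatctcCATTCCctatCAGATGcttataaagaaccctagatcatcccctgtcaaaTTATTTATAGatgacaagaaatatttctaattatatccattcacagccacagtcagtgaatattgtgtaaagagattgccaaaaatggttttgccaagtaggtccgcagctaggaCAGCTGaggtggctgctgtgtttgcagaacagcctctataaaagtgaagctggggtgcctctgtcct
Mylpf, fast regulatory light chain, chr7:127211358-127211607 (plus strand): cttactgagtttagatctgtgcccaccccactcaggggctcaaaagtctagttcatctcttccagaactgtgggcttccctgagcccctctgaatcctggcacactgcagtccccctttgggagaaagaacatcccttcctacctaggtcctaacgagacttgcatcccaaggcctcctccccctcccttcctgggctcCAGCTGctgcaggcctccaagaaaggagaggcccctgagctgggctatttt

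In the windows of 300 bases (250 before the start and 50 after) a CANNTG was present for 29 of the 33 genes (87.9%) and for 75.0% of all 27025 genes with a window. A gene with several windows counts once, if any of them holds the motif. CATTCC was present for 13 of 33 (39.4%) against 16.6% of all genes with a window, and a MEF2 site for 6 of 33 (18.2%) against 2.16%. The MEF2 site was present for 3 of 10 fast genes, among them Myh4 above, and for 0 of the 6 slow genes. For 31 of 40 windows the bases after the start were found in a transcript of the gene, but not for those of Myl2 or Myh4. The Myl2 windows ended at 122092773 and 122093238, before that gene's start in the skin table at 122100951. The Myh4 window ended at 67237861, before 67238029. The slow count therefore does not cover sequence next to that start of Myl2. Motifs that overlapped each other were counted once for each motif. These are matches of letters in a short window, and no binding was measured.

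The 12 libraries held 16869716 to 18485698 reads assigned to genes, and a level is given as FPKM (fragments scaled to gene length in kilobases and to the library's size). FPKM is per length, so levels of different genes can be set side by side. The FPKM of Trpv3 without treatment was 2.06, 2.71 and 1.13 for wild type and 3.17, 3.64 and 2.62 for the knockout label, which is not lower. With MC903 these were 16.1, 17 and 19 against 6.82, 6.78 and 4.73. Groups are therefore called labelled knockout. Untreated wild type replicate 3 stood apart within its group. It was the highest of the 12 libraries for 31 of the 39 detected members and for all 13 detected fast genes, but for 1 of 6 slow genes. Its level was a median of 2.02 times the mean of replicates 1 and 2 for fast genes and 1.08 times for slow genes. Counts of members are given with and without it.

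The label of the gene group fitted the RNA. Acta1, the actin of skeletal muscle thin filaments, was the most abundant of the 40, at 1368 ± 579 FPKM (SD, n = 3) in untreated wild type, followed over the 12 libraries by Mylpf, Atp2a1, Tnnt3 and Tnni2, all forms of fast fibres. The 40 genes took between 0.342% and 2.47% of the assigned reads of a library. Slow-fibre genes were a small part. Their 6 levels summed to 113 ± 19.6 FPKM in untreated wild type, against 3130 ± 1180 for the fast genes. Heart-restricted genes were low there, with Nppa listed at 0 in all 12 libraries and Myh6 at 0.194, 0.258 and 0.288. The highest of them was Tnni3, at 0.926, 0.721 and 0.507 FPKM. Tnnc2, the troponin C of fast fibres, was listed at 0 in all 12 libraries although its partners Tnni2 and Tnnt3 stood at 50.3 to 547 and 53.1 to 635 FPKM. Of the 800 exon bases of Tnnc2 (chromosome 2, 164777161 to 164779967, mm10, minus strand), 592 (74%) also lie in exons of Ube2c on the opposite strand, so no level is given for it. Reads of the near-identical heavy chains Myh1, Myh2 and Myh4, which neighbour each other on chromosome 11, may have been split between them in ways the table does not show.

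**Figure D1:**
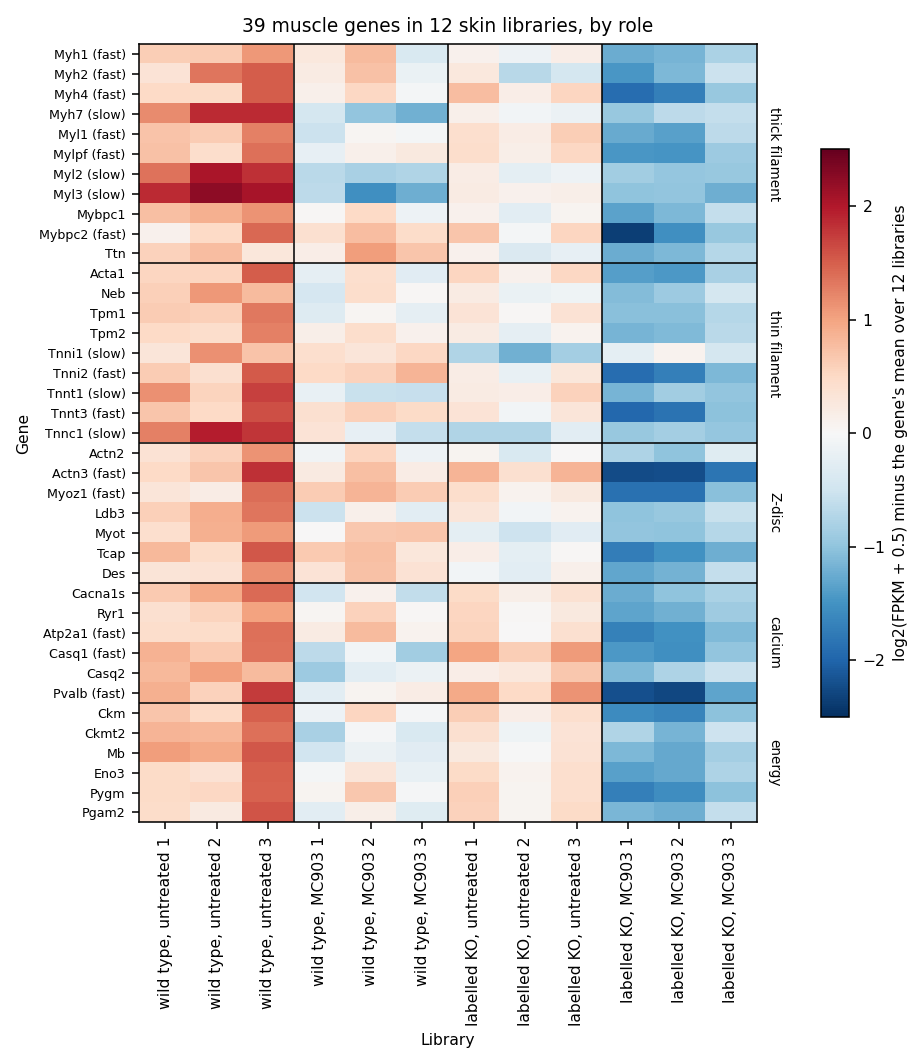
Level of 39 muscle genes (rows, by role) in 12 skin libraries (columns). Colour is log2(FPKM + 0.5) minus the gene's mean over the 12 libraries. Untreated wild type replicate 3 is the darkest red column for most fast genes, and the MC903 libraries labelled knockout (labelled KO) hold the lowest value for 36 of 39 genes.

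Changes were tested on log2(FPKM + 0.5) with limma over the 17646 genes that reached an FPKM of 0.5 in at least 3 libraries, and a gene is said to rise or fall only at a Benjamini-Hochberg adjusted p below 0.05. All adjusted p-values below are from limma. The scale understates changes of low genes. All members except Tnnc2 entered the test, 39 in number. RNA of whole skin does not separate fewer muscle fibres in a sample from less of an RNA per fibre. After MC903 in wild type 21 of 39 members fell and 0 rose, while 30.3% of all genes tested fell and 32.6% rose. In the libraries labelled knockout 35 fell and 1 rose after MC903, while 23.0% of all genes fell and 25.0% rose. Without treatment 13 members were lower and 0 higher in the libraries labelled knockout than in wild type, against 4.55% and 7.15% of all genes. Under MC903 33 were lower and 0 higher there, against 26.1% and 25.9% of all genes. The MC903 response itself differed between the genotypes for 17 members. It was lower (a larger fall) with the knockout label for 12 and higher for 5, against 19.7% and 20.0% of all genes. The total of 17 is near the share of all genes. Median log2 fold changes of the members in these 5 comparisons were -0.78, -1.32, -0.69, -1.18 and -0.50, and those of all genes tested lay between -0.028 and 0.023.

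The counts depend in part on how libraries were scaled. Scaling every library to the same FPKM sum (TPM) shifted the all-gene median by -0.38 for the wild type response and by -0.16, 0.23 and 0.23 in the MC903 response with the knockout label, the genotype comparison under MC903 and the difference of responses. With it 36 members fell after MC903 in wild type and 7 had a lower response with the knockout label. Over all genes tested the calls in wild type after MC903 went from 5758 higher and 5351 lower to 3071 and 8439. They went from 4406 and 4051 to 2910 and 5758 with the knockout label, from 4575 and 4612 to 6683 and 2413 between genotypes under MC903, and from 3527 and 3481 to 5388 and 2122 for the difference of responses. Scaling by total reads gave 4452 higher and 6672 lower in wild type after MC903, 4477 and 2757 for the difference of responses, and 1055 and 1069 in place of 1261 and 803 between untreated genotypes. Without untreated wild type replicate 3 the members that fell or were lower numbered 17, 36, 12, 34 and 19 in the 5 comparisons. Over all genes tested the lower calls there numbered 5466, 4511, 1447, 5046 and 4028, in place of 5351, 4051, 803, 4612 and 3481. Between untreated genotypes other single libraries mattered more, with 7 members lower without untreated labelled knockout replicate 2 and 8 without replicate 3 of that group. The lower calls over all genes also dropped, from 803 to 261 and 442. For the difference of responses 6 were lower without untreated labelled knockout replicate 1, and 7 without untreated wild type replicate 1 or without MC903 labelled knockout replicate 1 or 2. Genes of the whole table with a lower response numbered 2841, 3133, 3060 and 3133 in these fits, in place of 3481.

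Slow-fibre genes and fast-fibre genes did not share a pattern. After MC903 in wild type 5 of 6 slow genes fell, with a median log2 fold change of -2.15, and 4 of 13 fast genes fell, with a median of -0.61. With 30.3% of all genes falling, the fast count is near the background. With the knockout label 4 slow genes fell and 1 rose (median -0.78), while 12 of 13 fast genes fell (median -1.80), against 23.0% of all genes falling. Without treatment all 6 slow genes were lower with the knockout label (median -1.73), against 1 of 13 fast genes, Myh2 (median -0.44), and 4.55% of all genes. Under MC903 2 of 6 slow genes (median -0.37) and all 13 fast genes (median -1.80) were lower with that label, against 26.1% of all genes, so the slow count is near the background. The difference of responses, tested gene by gene, was higher with the knockout label for 5 slow genes and lower for 0, and higher for 0 and lower for 8 fast genes, with medians of 1.56 and -1.36, while 20.0% of all genes had a higher and 19.7% a lower response. The untreated wild type libraries enter the wild type response, the untreated genotype comparison and the difference of responses, so those 3 results are not independent.

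These medians held their sign in every alternative processing tried. For the slow genes they ranged from -2.56 to -1.86 in the wild type response and from 1.27 to 1.82 in the difference of responses, and 5 slow genes passed as higher in the latter in each alternative. For the fast genes they ranged from -1.09 to -0.22 and from -1.73 to -1.08. The number of fast genes that fell in wild type after MC903 was 3 to 11, the 11 being with TPM scaling. Relative to the median of all genes the fast median there was -0.64 as deposited and -0.73 with TPM. Without untreated wild type replicate 3, 10 fast genes had a lower response with the knockout label, with a median of -1.69, and the 5 slow genes that passed had a higher one. Of all 17646 genes tested 4028 had a lower and 3975 a higher response in that fit. Under MC903 the number of slow genes lower with the knockout label was 0 to 3 over the alternatives, and 0 with TPM scaling.

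**Figure D2:**
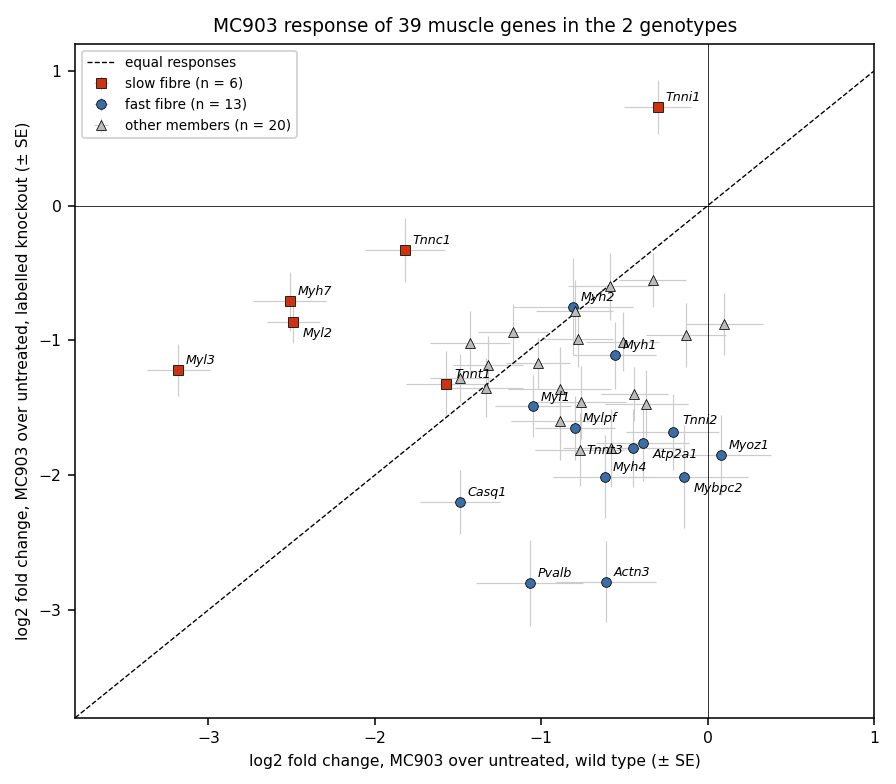
MC903 response of 39 muscle genes as log2 fold change on log2(FPKM + 0.5), wild type on the x axis and labelled knockout on the y axis, with bars of 1 SE and a dashed line of equal responses. Most fast genes lie under the line (Actn3 at -0.61 and -2.79) and the 6 slow genes lie above it (Myl3 at -3.18 and -1.22).

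In the thick filament, heavy chains are the motors. Myh7, the slow heavy chain (chromosome 14, 54970684 to 54994626, mm10), stood at 5.54, 9.14 and 9.1 FPKM in untreated wild type, 1.45, 0.828 and 0.657 in MC903 wild type, 2.41, 2.03 and 1.89 in the untreated libraries labelled knockout and 0.87, 1.18 and 1.25 in the MC903 libraries labelled knockout. All 3 untreated wild type libraries were above the other 9, and the untreated libraries labelled knockout were above all 6 MC903 libraries. Myh7 fell, at a log2 fold change of -2.51 ± 0.22 (SE, adjusted p = 2.7e-06) in wild type, with an 8.11-fold lower mean, and at -0.71 ± 0.22 (SE, adjusted p = 0.022) with the knockout label, where leaving out replicate 1 of either group ended the call (adjusted p of up to 0.078). Under MC903 the genotypes overlapped, at 0.14 ± 0.22 (SE, adjusted p = 0.62). The responses differed by 1.81 ± 0.31 (SE, adjusted p = 0.0013). Opposite-strand genes, among them Mhrt, share 13.3% of its exon bases. Myh4, the heavy chain of the fastest fibres (chromosome 11, 67238029 to 67260446), stood at 175, 173 and 354 FPKM in untreated wild type, 136, 179 and 121 in MC903 wild type, 212, 139.8 and 182 in the untreated libraries labelled knockout and 32.9, 37.8 and 63.9 in the MC903 libraries labelled knockout. Here the MC903 libraries labelled knockout were lowest and the other groups overlapped, apart from replicate 3 of untreated wild type. In wild type Myh4 did not pass, at -0.62 ± 0.31 (SE, adjusted p = 0.1), and fell with the knockout label, at -2.01 ± 0.31 (SE, adjusted p = 0.00037). The difference of responses was -1.39 ± 0.44 (SE, adjusted p = 0.028), a call ended by 9 of 23 alternatives, among them leaving out untreated wild type replicate 1 or 2, MC903 wild type replicate 2, untreated labelled knockout replicate 1 or 3 or MC903 labelled knockout replicate 1 or 2 (adjusted p of up to 0.067).

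Myh1 and Myh2, the heavy chains of intermediate speed, did not pass in wild type after MC903, at -0.56 ± 0.25 (SE, adjusted p = 0.075) and -0.81 ± 0.36 (SE, adjusted p = 0.071). With the knockout label Myh1 fell, at -1.11 ± 0.25 (SE, adjusted p = 0.004), and Myh2 did not pass, at -0.75 ± 0.36 (SE, adjusted p = 0.11). Myh2, the heavy chain of fast oxidative fibres, stood at 25.2, 50.3 and 57.4 FPKM in untreated wild type, 22.8, 33 and 17.6 in MC903 wild type, 23.6, 12 and 14.4 in the untreated libraries labelled knockout and 6.87, 8.72 and 13.5 in the MC903 libraries labelled knockout. It was the fast gene that passed between untreated genotypes, at -1.36 ± 0.36 (SE, adjusted p = 0.035), a call ended by 9 of 24 alternatives, among them leaving out untreated wild type replicate 2 or 3, untreated labelled knockout replicate 2 or 3 or MC903 labelled knockout replicate 2 (adjusted p of up to 0.13).

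**Figure D3:**
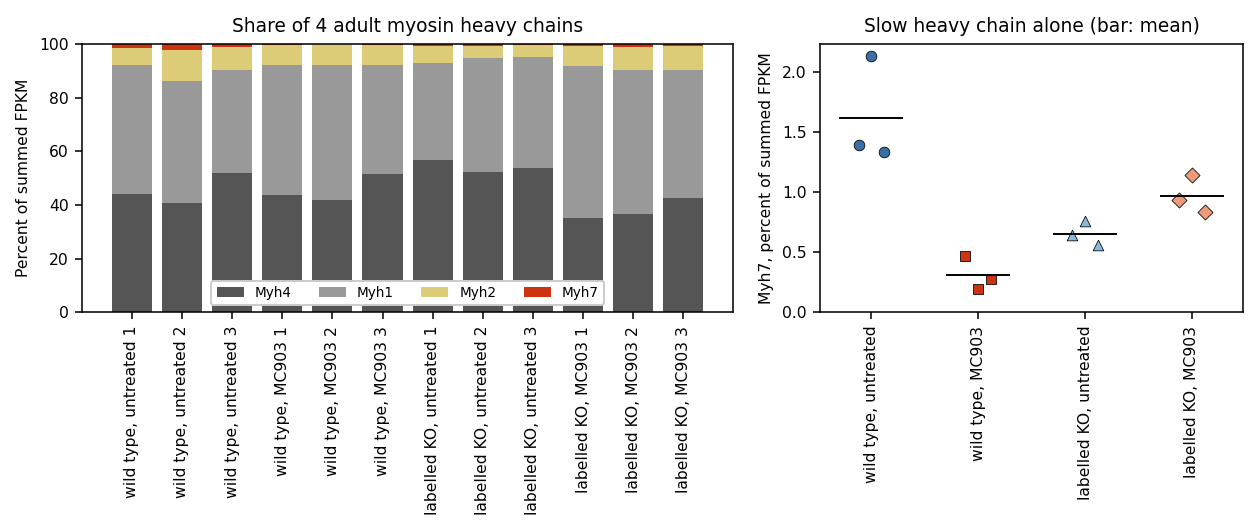
Share of the summed FPKM of 4 adult myosin heavy chains in each of the 12 libraries (left, percent, bars stacked to 100) and the share of Myh7 alone (right, percent, 1 point per library, line at the mean of 3). Myh7 made up 1.33 to 2.14% in untreated wild type and 0.193 to 0.468% in MC903 wild type.

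Shares within the heavy chains do not depend on the scaling between libraries. Myh7 made up 1.62 ± 0.45% (SD, n = 3) of the summed FPKM of Myh1, Myh2, Myh4 and Myh7 in untreated wild type and 0.314 ± 0.14% in MC903 wild type, with no overlap. In untreated libraries labelled knockout it made up 0.654 ± 0.101%, and after MC903 0.97 ± 0.159%, again with no overlap between these groups. Myh4 made up 54.2 ± 2.4% in untreated libraries labelled knockout and 38.1 ± 3.77% after MC903, while Myh1 went from 40.1 ± 3.46% to 52.7 ± 4.38%. In wild type the Myh4 share was 45.5 ± 5.77% without treatment and 45.7 ± 5.16% after MC903, and these ranges overlapped. No test was made on the shares, since they combine members.

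Light chains wrap the neck of the myosin head. Myl2, the regulatory light chain of slow fibres (chromosome 5, 122100951 to 122113472), stood at 14.1, 22.8 and 19.4 FPKM in untreated wild type, 3.04, 2.71 and 2.84 in MC903 wild type, 5.9, 4.27 and 4.71 in the untreated libraries labelled knockout and 2.6, 2.41 and 2.44 in the MC903 libraries labelled knockout. Its untreated wild type libraries were all above the rest, and both MC903 groups lay between 2.41 and 3.04. Myl2 fell in wild type, at -2.49 ± 0.16 (SE, adjusted p = 2.4e-07), and with the knockout label, at -0.86 ± 0.16 (SE, adjusted p = 0.001). Between the untreated genotypes it was lower with the knockout label, at -1.8 ± 0.16 (SE, adjusted p = 0.00037), and under MC903 it did not pass, at -0.17 ± 0.16 (SE, adjusted p = 0.38). Mylpf, the regulatory light chain of fast fibres (chromosome 7, 127208890 to 127214298), stood at 526, 426 and 817 FPKM in untreated wild type, 274, 344 and 371 in MC903 wild type, 427, 350.4 and 452 in the untreated libraries labelled knockout and 114, 113 and 168 in the MC903 libraries labelled knockout. The MC903 libraries labelled knockout were below all others. Mylpf fell in wild type, at -0.8 ± 0.24 (SE, adjusted p = 0.012), a call that ended without MC903 wild type replicate 1 (adjusted p of up to 0.052) and whose value was -0.53 without untreated wild type replicate 3, and it fell with the knockout label, at -1.65 ± 0.24 (SE, adjusted p = 0.00023).

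Myl3, the essential light chain of slow fibres (chromosome 9, 110741861 to 110769798), had the lowest fold change of the 39 genes in wild type. It stood at 11.4, 14.8 and 13 FPKM in untreated wild type, 1.58, 0.632 and 0.903 in MC903 wild type, 3.25, 3 and 3.1 in the untreated libraries labelled knockout and 1.13, 1.14 and 0.899 in the MC903 libraries labelled knockout. The mean after MC903 was 12.6-fold lower in wild type, at -3.18 ± 0.19 (SE, adjusted p = 1.6e-07), and 2.95-fold lower with the knockout label, at -1.22 ± 0.19 (SE, adjusted p = 0.00035). Untreated libraries labelled knockout stood below untreated wild type without overlap, at -1.9 ± 0.19 (SE, adjusted p = 0.00071), and under MC903 the genotypes overlapped, at 0.06 ± 0.19 (SE, adjusted p = 0.81). The responses differed by 1.96 ± 0.27 (SE, adjusted p = 0.00033). Myl1, the essential light chain of fast fibres, stood at 245, 235 and 363 FPKM in untreated wild type, 103, 156 and 145 in MC903 wild type, 201, 169.8 and 229 in the untreated libraries labelled knockout and 62.4, 58.3 and 95.1 in the MC903 libraries labelled knockout. It fell in both, at -1.05 ± 0.23 (SE, adjusted p = 0.0021) in wild type and -1.49 ± 0.23 (SE, adjusted p = 0.00038) with the knockout label, and the difference of responses did not pass, at -0.44 ± 0.33 (SE, adjusted p = 0.31).

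Mybpc2, the fast form of myosin-binding protein C, which braces the thick filament, stood at 14.4, 19 and 37.3 FPKM in untreated wild type, 17.9, 23.1 and 18.7 in MC903 wild type, 21.8, 13 and 19.5 in the untreated libraries labelled knockout and 2.21, 4.29 and 6.7 in the MC903 libraries labelled knockout. Wild type libraries with and without MC903 overlapped, and the MC903 libraries labelled knockout were the 3 lowest. It did not pass in wild type, at -0.14 ± 0.38 (SE, adjusted p = 0.77), and fell with the knockout label, at -2.01 ± 0.38 (SE, adjusted p = 0.0013), and the responses differed by -1.87 ± 0.54 (SE, adjusted p = 0.018). Without treatment the genotypes overlapped, at -0.29 ± 0.38 (SE, adjusted p = 0.67). Mybpc1, the slow form, which fast fibres also make, fell in both, at -0.78 ± 0.21 (SE, adjusted p = 0.006) and -0.99 ± 0.21 (SE, adjusted p = 0.0023). Ttn, the giant spring that spans the sarcomere, had the highest fold change in wild type, at 0.1 ± 0.23 (SE, adjusted p = 0.72), with libraries at 4.93, 5.7 and 3.94 FPKM in untreated wild type, 3.61, 7.08 and 5.42 in MC903 wild type, 3.45, 2.36 and 2.66 in the untreated libraries labelled knockout and 1.04, 1.18 and 1.73 in the MC903 libraries labelled knockout. Its groups overlapped in wild type. It fell with the knockout label, at -0.88 ± 0.23 (SE, adjusted p = 0.0085), and the difference of responses, at -0.98 ± 0.32 (SE, adjusted p = 0.033), was ended by 11 of 23 alternatives, among them leaving out untreated wild type replicate 1 or 3, MC903 wild type replicate 2 or 3, untreated labelled knockout replicate 1 or 3 or MC903 labelled knockout replicate 1 or 2 (adjusted p of up to 0.12).

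**Figure D4:**
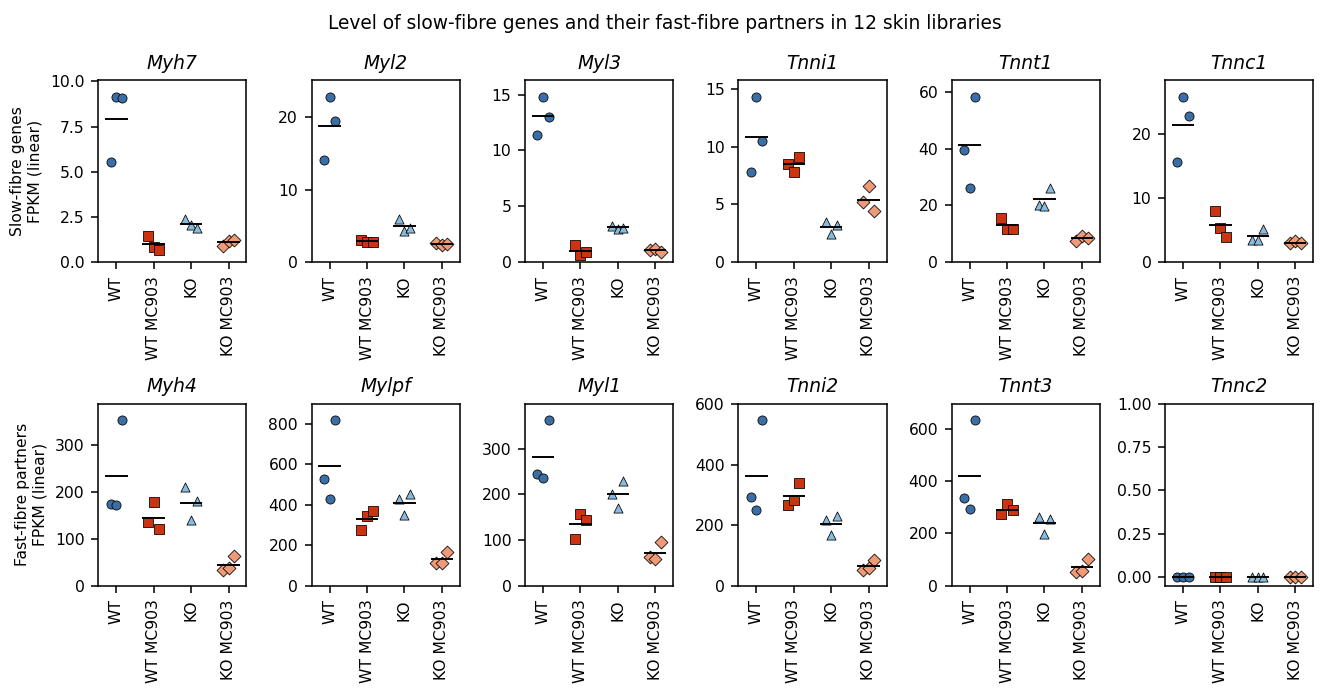
FPKM (linear axes that differ between panels) of the 6 slow-fibre genes (top) and the fast-fibre partner of each (bottom), 1 point per library with a line at the mean of 3. WT is wild type and KO labelled knockout, untreated unless MC903 is written. For Myh7, Myl2, Myl3 and Tnnc1 untreated wild type is above all other libraries, the fast partners are lowest in the MC903 libraries labelled knockout, and Tnnc2 is listed at 0 throughout.

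Along the thin filament, the troponin complex senses calcium. Tnnc1, the calcium sensor of slow fibres (chromosome 14, 31208312 to 31211729), stood at 15.7, 25.8 and 22.8 FPKM in untreated wild type, 8.04, 5.38 and 4 in MC903 wild type, 3.49, 3.52 and 5.1 in the untreated libraries labelled knockout and 3.02, 3.24 and 2.96 in the MC903 libraries labelled knockout. Untreated wild type was above all other libraries. Tnnc1 fell in wild type, at -1.82 ± 0.24 (SE, adjusted p = 4.9e-05), and did not pass with the knockout label, at -0.33 ± 0.24 (SE, adjusted p = 0.28), where the untreated level was low. Without treatment it was lower with that label, at -2.26 ± 0.24 (SE, adjusted p = 0.0008), the lowest of the 39. The responses differed by 1.49 ± 0.33 (SE, adjusted p = 0.0051). Under MC903 it was lower with the knockout label, at -0.77 ± 0.24 (SE, adjusted p = 0.018), a call that ended with TPM scaling and without MC903 wild type replicate 1 (adjusted p of up to 0.1).

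Tnni1, the inhibitory subunit of slow fibres (chromosome 1, 135779434 to 135810989), differed from the other slow genes. It stood at 7.76, 14.3 and 10.5 FPKM in untreated wild type, 8.45, 7.81 and 9.13 in MC903 wild type, 3.47, 2.42 and 3.24 in the untreated libraries labelled knockout and 5.16, 6.62 and 4.43 in the MC903 libraries labelled knockout. The wild type groups overlapped, and the libraries labelled knockout were higher after MC903 than before without overlap. It did not pass in wild type, at -0.3 ± 0.2 (SE, adjusted p = 0.22), and it was the 1 member that rose with the knockout label, at 0.73 ± 0.2 (SE, adjusted p = 0.012). That call ended without untreated replicate 2 or MC903 replicate 2 labelled knockout (adjusted p of up to 0.056). Between untreated genotypes it was lower with the knockout label, at -1.65 ± 0.2 (SE, adjusted p = 0.0016). Under MC903 it was lower too, at -0.62 ± 0.2 (SE, adjusted p = 0.026), a call ended by 6 of 24 alternatives, among them leaving out MC903 wild type replicate 1 or 3 or MC903 labelled knockout replicate 1 or 3 (adjusted p of up to 0.2). Tnni2, the fast form, stood at 292, 249 and 547 FPKM in untreated wild type, 266, 282 and 339.6 in MC903 wild type, 215, 167 and 229 in the untreated libraries labelled knockout and 50.3, 57.3 and 86.1 in the MC903 libraries labelled knockout. Its MC903 libraries labelled knockout were below all others. It did not pass in wild type, at -0.21 ± 0.28 (SE, adjusted p = 0.53), fell with the knockout label, at -1.68 ± 0.28 (SE, adjusted p = 0.00061), and differed in response by -1.46 ± 0.4 (SE, adjusted p = 0.013). Under MC903 it was lower with that label, at -2.22 ± 0.28 (SE, adjusted p = 8.1e-05).

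Tnnt1, which ties slow troponin to tropomyosin (chromosome 7, 4504570 to 4516382), stood at 39.6, 26 and 58.3 FPKM in untreated wild type, 15.5, 11.8 and 11.6 in MC903 wild type, 20.3, 19.8 and 26.3 in the untreated libraries labelled knockout and 7.58, 9.34 and 8.58 in the MC903 libraries labelled knockout. The MC903 libraries of both genotypes were below all untreated ones. It fell in wild type, at -1.57 ± 0.24 (SE, adjusted p = 0.00016), and with the knockout label, at -1.32 ± 0.24 (SE, adjusted p = 0.00099), and it was the slow gene whose difference of responses did not pass, at 0.25 ± 0.34 (SE, adjusted p = 0.59). Under MC903 the genotypes did not overlap, but the difference did not pass, at -0.57 ± 0.24 (SE, adjusted p = 0.064). The call between untreated genotypes, at -0.82 ± 0.24 (SE, adjusted p = 0.049), was ended by 15 of 24 alternatives, among them leaving out untreated wild type replicate 1 or 3, MC903 wild type replicate 1, 2 or 3, untreated labelled knockout replicate 1, 2 or 3 or MC903 labelled knockout replicate 1, 2 or 3 (adjusted p of up to 0.16), and the value was -0.54 without untreated wild type replicate 3. Its fast partner Tnnt3 stood at 335, 294 and 635 FPKM in untreated wild type, 273, 314 and 288 in MC903 wild type, 264, 198 and 257 in the untreated libraries labelled knockout and 53.1, 57.9 and 102 in the MC903 libraries labelled knockout. The wild type groups overlapped, and the MC903 libraries labelled knockout were lowest. Tnnt3 did not pass in wild type, at -0.45 ± 0.29 (SE, adjusted p = 0.21), and fell with the knockout label, at -1.8 ± 0.29 (SE, adjusted p = 0.00051). The responses differed by -1.36 ± 0.41 (SE, adjusted p = 0.023), a call ended by 6 of 23 alternatives, among them leaving out untreated wild type replicate 1 or 2, untreated labelled knockout replicate 1 or MC903 labelled knockout replicate 1 or 2 (adjusted p of up to 0.057).

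Other parts of the thin filament are shared by both fibre types. Acta1 went from 1368 ± 579 to 717 ± 205 FPKM in wild type, at -0.89 ± 0.29 (SE, adjusted p = 0.021), and from 943 ± 150.0 to 314 ± 80.3 with the knockout label, at -1.6 ± 0.29 (SE, adjusted p = 0.0011). The wild type call ended without untreated wild type replicate 3 and without MC903 wild type replicate 1 or 3 (adjusted p of up to 0.072), and the value without the first of these was -0.56. Neb, the ruler of thin filament length, fell in both, at -0.8 ± 0.23 (SE, adjusted p = 0.0094) and -0.78 ± 0.23 (SE, adjusted p = 0.015), the latter call ending without untreated labelled knockout replicate 1 or MC903 labelled knockout replicate 1 (adjusted p of up to 0.059). The tropomyosin gene Tpm1 fell in both as well, at -1.02 ± 0.19 (SE, adjusted p = 0.00067) and -1.17 ± 0.19 (SE, adjusted p = 0.00051). Tpm2 did not pass in wild type, at -0.51 ± 0.22 (SE, adjusted p = 0.065), and fell with the knockout label, at -1.01 ± 0.22 (SE, adjusted p = 0.0032). In all, 7 of 9 tested thin filament genes fell and 1 rose with the knockout label, against 23.0% and 25.0% of all genes. In wild type 5 of 9 fell, against 30.3% of all genes.

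The Z-disc anchors the thin filaments. Actn3, the alpha-actinin of fast fibres (chromosome 19, 4861223 to 4877909), stood at 38.7, 44.6 and 97.4 FPKM in untreated wild type, 32, 46.5 and 31.2 in MC903 wild type, 49.4, 36.1 and 49.5 in the untreated libraries labelled knockout and 5.37, 5.49 and 7.3 in the MC903 libraries labelled knockout. The MC903 libraries labelled knockout lay far below the other 9, which overlapped between groups. Actn3 did not pass in wild type, at -0.61 ± 0.3 (SE, adjusted p = 0.097), and the difference of responses, at -2.18 ± 0.43 (SE, adjusted p = 0.0024), was the lowest of the 39. Under MC903 its mean was 6.04-fold lower with the knockout label than in wild type, at -2.49 ± 0.3 (SE, adjusted p = 6.3e-05). Actn2, the alpha-actinin of all fibres, did not pass after MC903 in wild type, at -0.59 ± 0.25 (SE, adjusted p = 0.059), or with the knockout label, at -0.6 ± 0.25 (SE, adjusted p = 0.066), and was lower with that label under MC903, at -0.8 ± 0.25 (SE, adjusted p = 0.019), a call ended by 4 of 24 alternatives, among them leaving out MC903 wild type replicate 2 or MC903 labelled knockout replicate 1 or 2 (adjusted p of up to 0.11). Myoz1, which links alpha-actinin to calcineurin in fast fibres, stood at 32.5, 30.01 and 70.4 FPKM in untreated wild type, 41.4, 47.7 and 41.1 in MC903 wild type, 35.9, 28 and 31.3 in the untreated libraries labelled knockout and 6.88, 6.87 and 12.5 in the MC903 libraries labelled knockout. The wild type groups overlapped, at 0.08 ± 0.3 (SE, adjusted p = 0.84). Under MC903 it was lower with the knockout label, at -2.3 ± 0.3 (SE, adjusted p = 0.0001), and the responses differed by -1.93 ± 0.42 (SE, adjusted p = 0.0047).

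Des, the muscle intermediate filament desmin, stood at 92.9, 95.5 and 165 FPKM in untreated wild type, 94.5, 123 and 95.8 in MC903 wild type, 71.3, 62 and 81.1 in the untreated libraries labelled knockout and 29.8, 32.5 and 49.3 in the MC903 libraries labelled knockout. Wild type libraries overlapped, at -0.13 ± 0.24 (SE, adjusted p = 0.66), and Des fell with the knockout label, at -0.96 ± 0.24 (SE, adjusted p = 0.0069). Myot, a Z-disc protein, stood at 54.6, 75.3 and 84.9 FPKM in untreated wild type, 41.1, 65.1 and 66.1 in MC903 wild type, 34.3, 28 and 33.3 in the untreated libraries labelled knockout and 20.3, 19.96 and 24.5 in the MC903 libraries labelled knockout. The genotypes did not overlap in either condition, at -1.14 ± 0.2 (SE, adjusted p = 0.0067) without treatment and -1.36 ± 0.2 (SE, adjusted p = 0.00022) under MC903. Its fall with the knockout label, at -0.55 ± 0.2 (SE, adjusted p = 0.04), was ended by 5 of 24 alternatives, among them leaving out untreated labelled knockout replicate 1 or 3 or MC903 labelled knockout replicate 1 or 2 (adjusted p of up to 0.11). Tcap, the cap of titin at the Z-disc, did not pass in wild type, at -0.37 ± 0.25 (SE, adjusted p = 0.21), and fell with the knockout label, at -1.47 ± 0.25 (SE, adjusted p = 0.00062). Ldb3, which braces the Z-disc, fell in both, at -1.17 ± 0.21 (SE, adjusted p = 0.00053) and -0.94 ± 0.21 (SE, adjusted p = 0.0035). It was the only one of the 7 Z-disc and desmin genes to fall in wild type, where 30.3% of all genes fell. Under MC903 all 7 were lower with the knockout label, with a median of -1.50, against 26.1% of all genes. The Ldb3 call there ended with no filter and with TPM or total reads scaling (adjusted p of up to 0.21). It also ended without MC903 wild type replicate 2 or 3 or MC903 labelled knockout replicate 1 or 2.

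Calcium is released from the sarcoplasmic reticulum, stored there on calsequestrin and pumped back. Pvalb, the parvalbumin that soaks up calcium in fast fibres (chromosome 15, 78191114 to 78206400), stood at 259, 209 and 472 FPKM in untreated wild type, 117, 148 and 160.0 in MC903 wild type, 272, 199 and 308 in the untreated libraries labelled knockout and 30.1, 28.6 and 55.8 in the MC903 libraries labelled knockout. It fell in both genotypes, at -1.07 ± 0.32 (SE, adjusted p = 0.012) in wild type and -2.8 ± 0.32 (SE, adjusted p = 5.1e-05) with the knockout label, the lowest fold change of the 39 there. The untreated genotypes overlapped, at -0.21 ± 0.32 (SE, adjusted p = 0.72). The responses differed by -1.73 ± 0.45 (SE, adjusted p = 0.012). Casq1, the calsequestrin of fast fibres, stood at 71.9, 61.4 and 101 FPKM in untreated wild type, 24.8, 37.3 and 21.1 in MC903 wild type, 78.1, 59.8 and 82.5 in the untreated libraries labelled knockout and 14.2, 13.3 and 19.4 in the MC903 libraries labelled knockout. Both MC903 groups were below all untreated libraries, and the untreated genotypes overlapped, at -0.07 ± 0.24 (SE, adjusted p = 0.88). Casq1 fell in wild type, at -1.49 ± 0.24 (SE, adjusted p = 0.00024), and with the knockout label, at -2.2 ± 0.24 (SE, adjusted p = 3.5e-05). Casq2, the slow and cardiac calsequestrin, fell in both, at -1.32 ± 0.21 (SE, adjusted p = 0.00024) and -1.18 ± 0.21 (SE, adjusted p = 0.00099), and did not pass between genotypes under MC903, at -0.37 ± 0.21 (SE, adjusted p = 0.17).

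Atp2a1, the calcium pump of fast fibres, stood at 353, 356 and 673 FPKM in untreated wild type, 301, 451 and 276 in MC903 wild type, 380.1, 261 and 343 in the untreated libraries labelled knockout and 79.8, 90.5 and 121 in the MC903 libraries labelled knockout. It did not pass in wild type, at -0.39 ± 0.28 (SE, adjusted p = 0.24), and fell with the knockout label, at -1.76 ± 0.28 (SE, adjusted p = 0.00043). The release channel Ryr1 had the same calls, at -0.44 ± 0.2 (SE, adjusted p = 0.08) and -1.4 ± 0.2 (SE, adjusted p = 0.00024). Cacna1s, the voltage sensor that opens it, fell in both, at -1.33 ± 0.22 (SE, adjusted p = 0.00031) and -1.35 ± 0.22 (SE, adjusted p = 0.00055). Other genes share 21.9% of the exon bases of Atp2a1 and 20.0% of those of Cacna1s. All 6 calcium genes fell after MC903 with the knockout label, and 4 of 6 in wild type, against 23.0% and 30.3% of all genes.

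All 6 genes of muscle energy supply fell after MC903 with the knockout label (median -1.41) and 5 of 6 in wild type (median -0.83). The shares of all genes that fell were 23.0% and 30.3%. Mb, the oxygen store myoglobin, went from 281 ± 67.1 to 98.6 ± 11.6 FPKM in wild type, at -1.49 ± 0.18 (SE, adjusted p = 2.4e-05), and from 140.2 ± 18.6 to 57.5 ± 8.87 with the knockout label, at -1.28 ± 0.18 (SE, adjusted p = 0.00017). It was the energy gene that was lower with the knockout label without treatment, at -0.98 ± 0.18 (SE, adjusted p = 0.007), though 31.9% of its exon bases are shared with other genes. Ckm, the creatine kinase of the myofibril, went from 188 ± 74.3 to 108 ± 28.8 and from 128 ± 19.7 to 36.5 ± 9.35, at -0.77 ± 0.27 (SE, adjusted p = 0.029) and -1.81 ± 0.27 (SE, adjusted p = 0.00031). The wild type calls of Ckm and of the glycolytic enzymes Eno3 and Pgam2 ended without untreated wild type replicate 3, without MC903 wild type replicate 1 or 3 and in 2 further alternatives each (adjusted p of up to 0.11). Without untreated wild type replicate 3 they were -0.46 for Ckm, -0.4 for Eno3 and -0.48 for Pgam2, in place of -0.77 ± 0.27, -0.76 ± 0.27 and -0.89 ± 0.31. Ckmt2, the mitochondrial creatine kinase, did not pass between genotypes under MC903, at -0.4 ± 0.24 (SE, adjusted p = 0.18). Pygm, the muscle enzyme that breaks down glycogen, was the energy gene with a differing response, at -1.21 ± 0.41 (SE, adjusted p = 0.035), a call ended by 10 of 23 alternatives, among them leaving out untreated wild type replicate 1 or 2, MC903 wild type replicate 2, untreated labelled knockout replicate 1 or 3 or MC903 labelled knockout replicate 1 or 2 (adjusted p of up to 0.083).

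Ratios within a library compare slow with fast forms without any scaling between libraries. The log2 of the summed FPKM of the 6 slow genes over that of the 14 fast genes was -4.77, -4.38 and -5.07 in untreated wild type and -5.53, -6.29 and -6.04 in MC903 wild type. In untreated libraries labelled knockout it was -5.90, -5.64 and -5.72, and in MC903 libraries with that label -4.65, -4.49 and -5.32. Slow genes thus held 3.67 ± 0.864% of the summed slow and fast FPKM in untreated wild type and 1.63 ± 0.443% after MC903, without overlap. With the knockout label the share went the other way, from 1.83 ± 0.162% to 3.51 ± 0.956%, also without overlap. Both sums were lower after MC903 with that label. The slow sum went from 39.4 ± 4.64 to 21.6 ± 2.01 FPKM and the fast sum from 2133 ± 334 to 624 ± 173. The untreated wild type and the MC903 labelled knockout libraries overlapped. The MC903 shift of the log2 ratio was -1.21 in wild type. No p is given for these ratios, since they combine members chosen with results known. Tnnc2, listed at 0, adds nothing to the fast sum, while its slow partner Tnnc1 counts in the slow sum. The slow shares may therefore be too high.

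**Figure D5:**
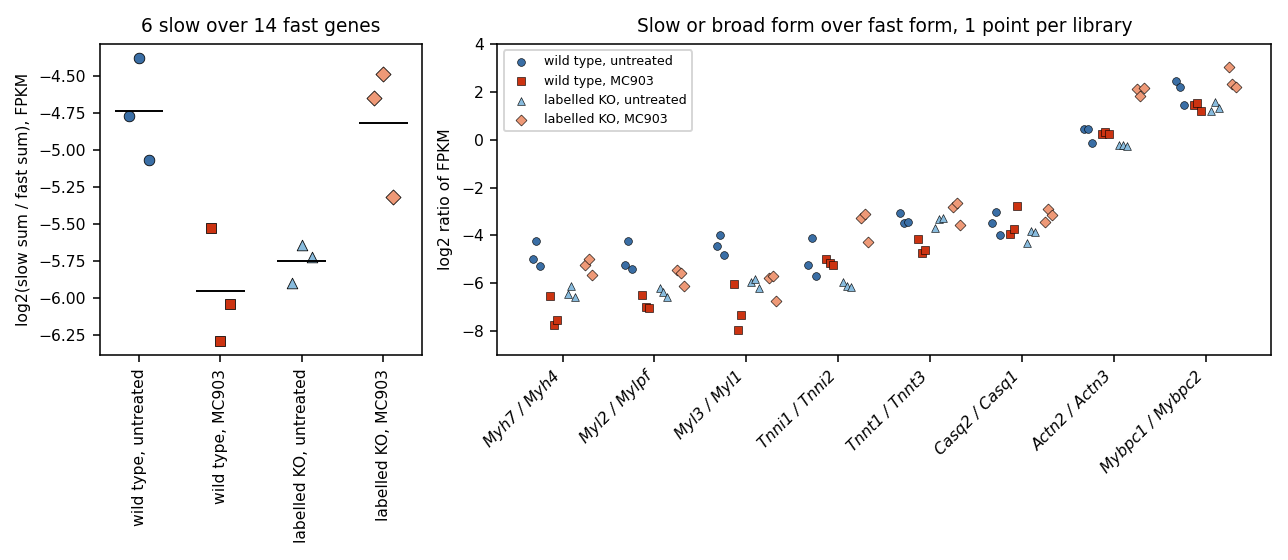
Left, log2 of the summed FPKM of 6 slow over 14 fast genes (Tnnc2 listed at 0) in each library, with a line at the mean of 3. Right, log2 FPKM ratio of a slow or broadly made form to its fast form, 1 point per library, for the 8 pairs with values above 0. After MC903 the summed ratio on the left is lower in wild type and higher in labelled knockout (labelled KO). The pairs on the right differ, as Myl3 to Myl1 does not rise in labelled KO, and the Actn2 to Actn3 ratio stands at 1.84 to 2.15 in MC903 labelled knockout, above all other libraries.

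The single pairs were not uniform. The log2 ratio of Myh7 to Myh4 was -4.83 ± 0.54 (SD, n = 3) in untreated wild type and -7.28 ± 0.64 after MC903, against -6.38 ± 0.25 and -5.30 ± 0.34 with the knockout label. Myl2 to Mylpf and Myl3 to Myl1 were also lower after MC903 in wild type, with mean differences of -1.89 and -2.69, with no overlap. With the knockout label Myl2 to Mylpf went from -6.37 ± 0.2 to -5.7 ± 0.36 without overlap, while Myl3 to Myl1 did not rise, at -5.99 ± 0.2 and -6.06 ± 0.58. The ratio of Tnni1 to Tnni2 overlapped between the wild type groups and went from -6.07 ± 0.1 to -3.56 ± 0.63 with the knockout label. For Tnnt1 to Tnnt3 it was -3.34 ± 0.23 and -4.50 ± 0.32 in wild type, and -3.44 ± 0.23 and -3.0 ± 0.5 with the knockout label. Actn2 to Actn3 stood at 0.24 ± 0.33 and 0.27 ± 0.06 in wild type, and went from -0.25 ± 0.03 to 2.03 ± 0.17 with the knockout label. Mybpc1 to Mybpc2 went from 1.38 ± 0.19 to 2.52 ± 0.45 with the knockout label and from 2.04 ± 0.52 to 1.39 ± 0.16 in wild type, where the groups overlapped. Casq2 to Casq1 stood at -3.5 ± 0.49 and -3.5 ± 0.62 in wild type and went from -3.99 ± 0.28 to -3.14 ± 0.27 with the knockout label, without overlap there.

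A further 50 genes of striated muscle that are no members were read in the same fits, with 49 tested. Of them 29 fell and 2 rose after MC903 in wild type (30.3% and 32.6% of all genes), and 38 fell and 0 rose with the knockout label (23.0% and 25.0% of all genes). Without treatment 18 were lower and 0 higher with that label (4.55% and 7.15%), and under MC903 36 were lower and 1 higher (26.1% and 25.9%). The response was lower for 6 with that label and higher for 1, Atp2a2, at 0.47 ± 0.12 (SE, adjusted p = 0.012). These 2 counts are below the shares of all genes, 19.7% and 20.0%. The lowest in wild type were Lmod3 (-2.25 ± 0.25, adjusted p = 1.5e-05), Myoz3 (-1.88 ± 0.24, adjusted p = 4.1e-05) and Ampd1 (-1.76 ± 0.28, adjusted p = 0.00023), which are a thin filament nucleator, a Z-disc protein and the muscle AMP deaminase. The highest there were Trim63 (1.65 ± 0.35, adjusted p = 0.0016), Smtnl2 (0.66 ± 0.25, adjusted p = 0.038) and Ankrd1 (0.66 ± 0.53, adjusted p = 0.3), and the call of Smtnl2 was ended by 11 of 24 alternatives, among them leaving out untreated wild type replicate 1 or 2, MC903 wild type replicate 1, 2 or 3, untreated labelled knockout replicate 3 or MC903 labelled knockout replicate 2 (adjusted p of up to 0.46), though without untreated wild type replicate 3 it stood at 1.02. Trim63, a ubiquitin ligase that tags muscle protein for breakdown, stood at 4.1, 3.91 and 7.01 FPKM in untreated wild type, 11.1, 18.2 and 21.5 in MC903 wild type, 4.95, 4.32 and 4.57 in the untreated libraries labelled knockout and 1.14, 1.32 and 3.75 in the MC903 libraries labelled knockout. Its MC903 wild type libraries were above all others and its MC903 libraries labelled knockout were the lowest.

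With the knockout label the lowest responses of these 49 were Cox7a1 (-1.88 ± 0.39, adjusted p = 0.0023), Mylk4 (-1.75 ± 0.26, adjusted p = 0.00025) and Sypl2 (-1.73 ± 0.26, adjusted p = 0.00029), and the highest were Ankrd1 (0.94 ± 0.53, adjusted p = 0.17), Xirp1 (0.47 ± 0.34, adjusted p = 0.27) and Ankrd2 (0.45 ± 0.39, adjusted p = 0.37). Between untreated genotypes the lowest were Ankrd2 (-1.48 ± 0.39, adjusted p = 0.033), Myoz2 (-1.45 ± 0.16, adjusted p = 0.00095) and Hspb7 (-1.35 ± 0.25, adjusted p = 0.0087). Myoz2 is the slow-fibre relative of Myoz1. Its difference of responses did not pass, at 0.36 ± 0.23 (SE, adjusted p = 0.23), unlike that of most slow members. The call of Ankrd2 was ended by 7 of 24 alternatives, among them leaving out untreated wild type replicate 2 or 3 or untreated labelled knockout replicate 1, 2 or 3 (adjusted p of up to 0.11). The highest between untreated genotypes were Sypl2 (-0.02 ± 0.26, adjusted p = 0.97), Trim63 (-0.06 ± 0.35, adjusted p = 0.93) and Cav3 (-0.18 ± 0.31, adjusted p = 0.75). Under MC903 the lowest were Trim63 (-2.85 ± 0.35, adjusted p = 6.9e-05), Mylk2 (-2.54 ± 0.29, adjusted p = 4.2e-05) and Cox6a2 (-1.77 ± 0.33, adjusted p = 0.0011), where Mylk2 phosphorylates the regulatory light chain, and the highest were Atp2a2 (0.26 ± 0.09, adjusted p = 0.028), Dmd (0.13 ± 0.16, adjusted p = 0.54) and Xirp1 (0.07 ± 0.34, adjusted p = 0.88). Atp2a2 is the calcium pump of slow fibres, also made by many other cells, and its call was ended by 4 of 24 alternatives, among them leaving out MC903 wild type replicate 3 or MC903 labelled knockout replicate 1 or 2 (adjusted p of up to 0.11). The lowest differences of responses were Trim63 (-2.78 ± 0.5, adjusted p = 0.0014), Mylk2 (-1.99 ± 0.41, adjusted p = 0.0032) and Fbxo32 (-1.36 ± 0.27, adjusted p = 0.0026). The highest were Xirp1 (1.03 ± 0.48, adjusted p = 0.11), Lmod3 (0.63 ± 0.35, adjusted p = 0.18) and Asb5 (0.59 ± 0.46, adjusted p = 0.33), none of which passed.

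Markers of other tissues were read in the same comparisons. Over all genes tested 30.3% fell and 32.6% rose after MC903 in wild type, and 23.0% and 25.0% with the knockout label. With that label 4.55% were lower and 7.15% higher than in wild type without treatment, and 26.1% and 25.9% under MC903. Of 12 fat cell markers 11 fell after MC903 in wild type and 10 with the knockout label, and 9 were lower with that label without treatment. Their summed level was 786 to 1671 FPKM in untreated wild type, 448 to 575 in MC903 wild type, 703 to 777 in untreated and 252 to 384 in MC903 libraries labelled knockout. Of 10 Schwann cell and myelin markers 9 and 8 fell after MC903, with sums of 563 to 629, 100.1 to 104.6, 459.6 to 491 and 240.01 to 259 FPKM in the same order. All 10 dermal fibroblast markers were higher with the knockout label under MC903 and 5 without treatment, with sums of 1339.6 to 2416 and 632 to 765 in wild type and 4859 to 5565 and 1904 to 2438 with that label. Of 8 basal keratinocyte markers 6 rose and 1 fell in wild type after MC903, and 3 rose and 3 fell with the knockout label (median -0.07). Under MC903 all 8 were lower with that label. Their sums were 1742 to 2033 and 12375 to 17318 in wild type and 2024 to 2313 and 3495 to 4885 with the knockout label. The mean of Krt14 rose by more than the last of these sums did, from 1103 ± 69.2 FPKM to 3427 ± 596 FPKM. The mean of Krt15 went from 274 ± 17.4 FPKM to 33.5 ± 6.04 FPKM. Transcripts of the mitochondrial genome fell for 9 of 13 genes in wild type after MC903 and for 0 of 13 with the knockout label, and 9 of 13 were lower with that label without treatment, with sums of 31119 to 44272 and 15864 to 19841 in wild type and 18361 to 19455 and 22329 to 22769 with that label. Of 9 smooth muscle markers tested 5 fell and 1 rose in wild type, and 3 fell and 3 rose with the knockout label, the latter near the shares of all genes. The difference of responses, which was higher for slow genes and lower for fast genes, was higher for 9 of 10 Schwann cell markers (median 1.21), 10 of 13 mitochondrial transcripts (1.26), 5 of 9 smooth muscle markers (1.11), 5 of 12 fat cell markers (0.60) and 4 of 10 fibroblast markers (0.43), and lower for 7 of 8 keratinocyte markers (-1.16), against 20.0% and 19.7% of all genes. The part of these tissues in the muscle results was not tested.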

How the data were processed

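The authors deposited FPKM values per gene and library for mouse skin, in 1 table with each gene's length. The submitters' processing notes name featureCounts and the build mm10. The version, strand setting and read filters are not given in sources used here. FPKM times gene length gave whole reads (within 0.01 of a whole number) for 100% of values, 16869716 to 18485698 per library. The remaining 3 samples, of dorsal root ganglion, were not used here.

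The 12 libraries were grouped by label into 4 groups of 3. Genes at an FPKM of 0.5 or more in at least 3 libraries were kept, and log2(FPKM + 0.5) was fitted with limma 3.58.1 in R 4.3.3 (group means, trended empirical Bayes, 8 residual degrees of freedom), with 5 two-sided contrasts and Benjamini-Hochberg adjustment over 17646 genes. The code of the fit was tested on simulated reads with known changes, drawn at a fixed spread. That run held no library that stands apart, as untreated wild type replicate 3 did, and so does not cover such a case. Alternatives changed the pseudocount, filter, scaling, weights, block, groups fitted, method (voom on recovered reads) and left out each library. Values per library are given for slow genes, their fast partners and the 3 lowest and 3 highest members per comparison. Members and lists were chosen with earlier results of these data known.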

Additional observations from a re-analysis of the deposited data

Results flagged for a closer look

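The MC903 response differed between libraries labelled knockout and wild type libraries for 17 members, tested gene by gene as the difference of the 2 responses in limma with an adjusted p below 0.05. Of all genes tested 19.7% had a lower and 20.0% a higher response. The total of 17 among 39 members is therefore near the share of all genes. Values are the labelled knockout response minus the wild type response on the log2(FPKM + 0.5) scale. Among slow genes it was higher for Myl3 (1.96), Myh7 (1.81), Myl2 (1.63), Tnnc1 (1.49) and Tnni1 (1.04). Among fast genes it was lower for Actn3 (-2.18), Myoz1 (-1.93), Mybpc2 (-1.87), Pvalb (-1.73), Tnni2 (-1.46), Myh4 (-1.39), Tnnt3 (-1.36) and Atp2a1 (-1.36). Among the other members it was lower for Pygm (-1.21), Tcap (-1.1), Ttn (-0.98) and Ryr1 (-0.96). The Tcap call was ended by 10 of 23 alternatives, among them leaving out untreated wild type replicate 1 or 2, MC903 wild type replicate 1 or 2, untreated labelled knockout replicate 1 or 3 or MC903 labelled knockout replicate 1 or 2 (adjusted p of up to 0.07). The call of Ryr1 was ended by 2 of 23 alternatives, TPM scaling and leaving out untreated labelled knockout replicate 1 (adjusted p of up to 0.074). All 17 rest in part on the same 3 untreated wild type libraries.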

How the results depend on the processing

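Across 24 alternatives, 113 of the 149 gene results that passed kept their call in each one and 0 changed direction. Of 69 that did not pass, 35 passed in at least 1. The count of members that fell after MC903 in wild type was 36 with TPM and 32 with total reads scaling. Over all 17646 genes tested 8439 and 6672 fell there, in place of 5351. Members lower with the knockout label without treatment numbered 8 with no filter, 22 with array weights, 8 with only the groups compared and 7 to 14 leaving out 1 library each. The lower calls over all genes were 548 of 33270, 2992, 243 and 261 to 1447 in the same order, in place of 803. Members with a lower response numbered 7 with no filter, 7 with TPM, 22 with array weights and 6 to 19 leaving out 1 library each. Over all genes these calls were 3159 of 33270, 2122, 4563 and 2841 to 4028, in place of 3481. Members that rose with the knockout label numbered 0 to 1 leaving out 1 library each. The cause of these moves was not tested.

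Changes of direction touched values that did not pass. In wild type after MC903 the log2 fold change of Ttn was -0.33 with TPM, -0.09 with total reads and -0.1 to 0.34 leaving out 1 library, and that of Myoz1 was -0.4, -0.13 and -0.14 to 0.46. Array weights gave 0.02 for Tnni1, 0.37 for Mybpc2 and 0.14 for Des, and leaving out 1 library gave -0.42 to 0.25 for Mybpc2, -0.28 to 0.14 for Des and -0.44 to 0.13 for Tnni2. Between untreated genotypes array weights gave 0.12 for Actn3, 0.19 for Mybpc2, 0.001 for Casq1, 0.09 for Cav3, 0.2 for Sypl2 and 0.13 for Trim63. Leaving out 1 library gave there -0.56 to 0.1 for Actn3, -0.58 to 0.1 for Mybpc2, -0.23 to 0.13 for Casq1, -0.42 to 0.21 for Cav3, -0.2 to 0.29 for Sypl2 and -0.2 to 0.18 for Trim63. It gave -0.51 to 0.01 for Myh4, -0.59 to 0.02 for Myoz1, -0.45 to 0.13 for Pvalb and -0.65 to 0.03 for Pgam2, where the upper end of each is without untreated wild type replicate 3. Under MC903 Myl2 was 0.08 with TPM and Xirp1 -0.09 with array weights, and leaving out 1 library gave -0.34 to 0.28 for Xirp1, -0.01 to 0.36 for Myh7, -0.14 to 0.3 for Myl3 and -0.04 to 0.24 for Dmd. For the difference of responses Tnnt1 was -0.04 to 0.54.

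No pairing of libraries by replicate number was seen, though groups of 3 are too few to exclude a shared batch. The correlation of deviations was over 0.1 for 3 of 18 pairs with the same number and 5 of 36 with other numbers. With the replicate block 21, 35, 15, 33 and 14 members were lower in the 5 comparisons, and Myh2 between untreated genotypes stood at an adjusted p of 0.050. The lower calls over all 17646 genes were 5366, 4070, 773, 4693 and 3512 with that block.

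Whole skin, 3 libraries a group, the 1 high untreated wild type library and exons shared between genes limit these values. Fold changes of genes near an FPKM of 0.5 are understated by the pseudocount.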

Other observations

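Genes of developing muscle and of the nerve contact did not all follow the adult fibre genes. Of 5 embryonic and perinatal fibre genes 4 were tested, and 2 fell and 1, Tnnt2, rose after MC903 in each genotype. Over all genes 30.3% fell and 32.6% rose in wild type, and 23.0% and 25.0% with the knockout label. Myh3, the embryonic myosin heavy chain, stood at 28.7, 30.9 and 22.3 FPKM in untreated wild type, 3.54, 4.56 and 2.47 in MC903 wild type, 8.25, 6.91 and 8.76 in the untreated libraries labelled knockout and 4.54, 6.27 and 5.92 in the MC903 libraries labelled knockout. Its untreated wild type libraries were above all others. It fell in wild type, at -2.81 ± 0.2 (SE, adjusted p = 4.7e-07), and was lower with the knockout label without treatment, at -1.71 ± 0.2 (SE, adjusted p = 0.001). With that label its MC903 response did not pass, at -0.48 ± 0.2 (SE, adjusted p = 0.061), and the responses differed by 2.32 ± 0.28 (SE, adjusted p = 0.00017). Under MC903 it was higher with the knockout label, at 0.62 ± 0.2 (SE, adjusted p = 0.021), a call that ended without MC903 wild type replicate 3 or MC903 labelled knockout replicate 2 or 3 (adjusted p of up to 0.081), with a value of 0.41 without the first. Actc1, the actin of heart and developing muscle, fell in both, at -3.07 ± 0.29 (SE, adjusted p = 4.3e-06) and -1.86 ± 0.29 (SE, adjusted p = 0.00038). Tnnt2, the troponin T of heart and developing muscle, rose by 1.12 ± 0.13 (SE, adjusted p = 2.3e-05) in wild type and 0.47 ± 0.13 (SE, adjusted p = 0.013) with the knockout label, the latter call ending with TPM scaling and without untreated labelled knockout replicate 1 (adjusted p of up to 0.055). These 3 genes were singled out after their values were seen.

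Of 10 genes of the neuromuscular junction 9 were tested, and 7 fell in wild type and 4 with the knockout label after MC903, against 30.3% and 23.0% of all genes. Of 10 myogenic regulators and satellite cell genes 5 were tested, and 4 fell after MC903 in each genotype, against the same shares. Their summed FPKM was 16.3 to 29.4 in untreated and 7.53 to 9.72 in MC903 wild type, and 13.8 to 16.5 and 5.7 to 9.32 with the knockout label. Of 7 heart-restricted genes 3 were tested, and 2 rose in each genotype after MC903, Myl7 and Tnni3 in wild type and Myl7 and Nppb with the knockout label, where Tnni3 fell, at -0.57 ± 0.2 (SE, adjusted p = 0.035). Over all genes 32.6% and 25.0% rose. Myl7, the light chain of the heart's atria, also singled out after its values were seen, stood at 0.511, 0 and 0.0886 FPKM in untreated wild type, 33.3, 24.8 and 38 in MC903 wild type, 0.0867, 0.178 and 0.091 in the untreated libraries labelled knockout and 22.5, 31 and 17 in the MC903 libraries labelled knockout. It rose in both, at 5.59 ± 0.27 (SE, adjusted p = 4.4e-08) and 5.24 ± 0.27 (SE, adjusted p = 2e-07), values that depend on the pseudocount since untreated levels lie near 0, while Nppa, another atrial gene, was listed at 0 in all 12 libraries.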
